A study of Mus musculus with 10 samples.

Results

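Ribosome biogenesis factors are the proteins that transcribe, cut, modify and fold ribosomal RNA and join it to ribosomal proteins, mostly in the nucleolus. The 42 factors described here are the genes of a chosen list of nucleolar and ribosome assembly genes, matched by symbol. All 42 were found among the 23056 gene symbols of the count table, and all 42 passed the filter on low counts. Messenger RNA was enriched on oligo(dT) beads and sequenced in 4 liver samples labelled as Ifrd1 knockouts (KO, genotype IFRD1-KO) and 6 labelled wild type (WT), 1 library each, called KO and WT livers here. Every liver was taken 12 hours after partial hepatectomy, in which the left lateral and median lobes are cut away and the remaining liver regrows. Ifrd1 encodes a transcriptional co-regulator. The labels give no age, sex or strain, and do not say in which cells or by which allele Ifrd1 was removed. They number the samples without saying that each came from a separate mouse, so a p-value reflects only how much the samples differ, which may be technical.

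Ribosomal RNA is made by RNA polymerase I as a single long precursor. Box C/D and box H/ACA particles, which pair a small nucleolar RNA (snoRNA) with core proteins, modify the precursor. A large particle called the small-subunit processome then releases the small-subunit rRNA, and a separate chain of assembly factors matures the large subunit. Making ribosomes is one of the main costs of growth, many of these genes are known targets of the transcription factor MYC, and in liver the nucleolar programme is known to be switched on when hepatocytes leave quiescence after hepatectomy. No unoperated liver was analysed here, so all values compare genotypes after surgery.

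The start regions of 5 factors are shown to let a reader see the E-box CACGTG, the palindrome bound by MYC and MAX, where it lies in these genes. Each sequence runs from 70 bases before to 30 bases after the transcription start, on the gene's own strand, and capitals mark CACGTG. The sequences are from RefSeq on GRCm38.p6. Nop2 lies at chr6:125131813-125131912, Pes1 at chr11:3963905-3964004, Wdr43 at chr17:71616145-71616244, Tsr1 at chr11:74898010-74898109 and Nip7, shown as a factor without the motif, at chr8:107056807-107056906, all on the plus strand.
Nop2: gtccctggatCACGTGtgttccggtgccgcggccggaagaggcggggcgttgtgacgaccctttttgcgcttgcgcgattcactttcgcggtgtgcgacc
Pes1: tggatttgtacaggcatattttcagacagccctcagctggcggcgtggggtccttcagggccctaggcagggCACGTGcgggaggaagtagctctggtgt
Wdr43: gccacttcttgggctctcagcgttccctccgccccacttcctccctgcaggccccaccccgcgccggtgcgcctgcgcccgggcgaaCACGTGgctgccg
Tsr1: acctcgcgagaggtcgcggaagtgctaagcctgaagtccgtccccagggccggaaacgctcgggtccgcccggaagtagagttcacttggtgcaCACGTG
Nip7: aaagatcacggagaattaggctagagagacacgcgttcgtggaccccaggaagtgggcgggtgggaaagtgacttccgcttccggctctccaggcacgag

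Most ribosome biogenesis factors had less transcript in KO livers than in WT livers, by a modest amount, and 1 of them passed the test over all genes. The log2 fold change of KO over WT was below 0 for 40 of the 42 factors, with a median of -0.47, while 51.6% of all 13688 tested genes were below 0, with a median of -0.02. Rrp12, a maturation factor of the small subunit, fell past the test's threshold, and 0 factors rose. The threshold was a p under 0.05 after Benjamini-Hochberg adjustment over all tested genes, with the p-value from the quasi-likelihood test of edgeR, and genes past it are called. The count is 1 of 42 factors called lower, where 0.767% of all tested genes were called lower and 0.563% higher. Before adjustment, 32 factors were lower at a p under 0.05 in the same test and 0 higher, where 14.4% of all tested genes were lower and 11.6% higher. DESeq2 called 21 of the factors lower and 0 higher (7.59% of all tested genes lower and 4.23% higher). The other tool, limma-voom, called 1 factor lower, Nop2, and 0 higher (0.636% of all tested genes lower and 1.69% higher).

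The size of the difference was small in most factors. Of the 42, 12 were lower by at least 1.5-fold, as were 1778 of the 13688 tested genes (13.0%), and Rrp12 alone was lower by at least 2-fold. All 4 KO libraries lay below the WT median in 37 factors and in 3769 (27.5%) of the tested genes. All KO libraries lay below all WT libraries in 10 factors (Polr1c, Rrp9, Nop14, Wdr75, Noc4l, Ltv1, Nop2, Nop56, Nolc1 and Mybbp1a), where 3.29% of all tested genes did. No factor had all KO libraries above all WT libraries (3.61% of all tested genes). Summed over the 42 factors, normalised expression was 1547, 1432, 1330 and 1514 CPM (read counts scaled to library size) in KO replicates 1 to 4, against a lowest value of 1569, a median of 1998 and a highest value of 2349 CPM in WT livers. The sums of the groups did not overlap, although the lowest WT liver lay close to the highest KO liver.

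**Figure D1:**
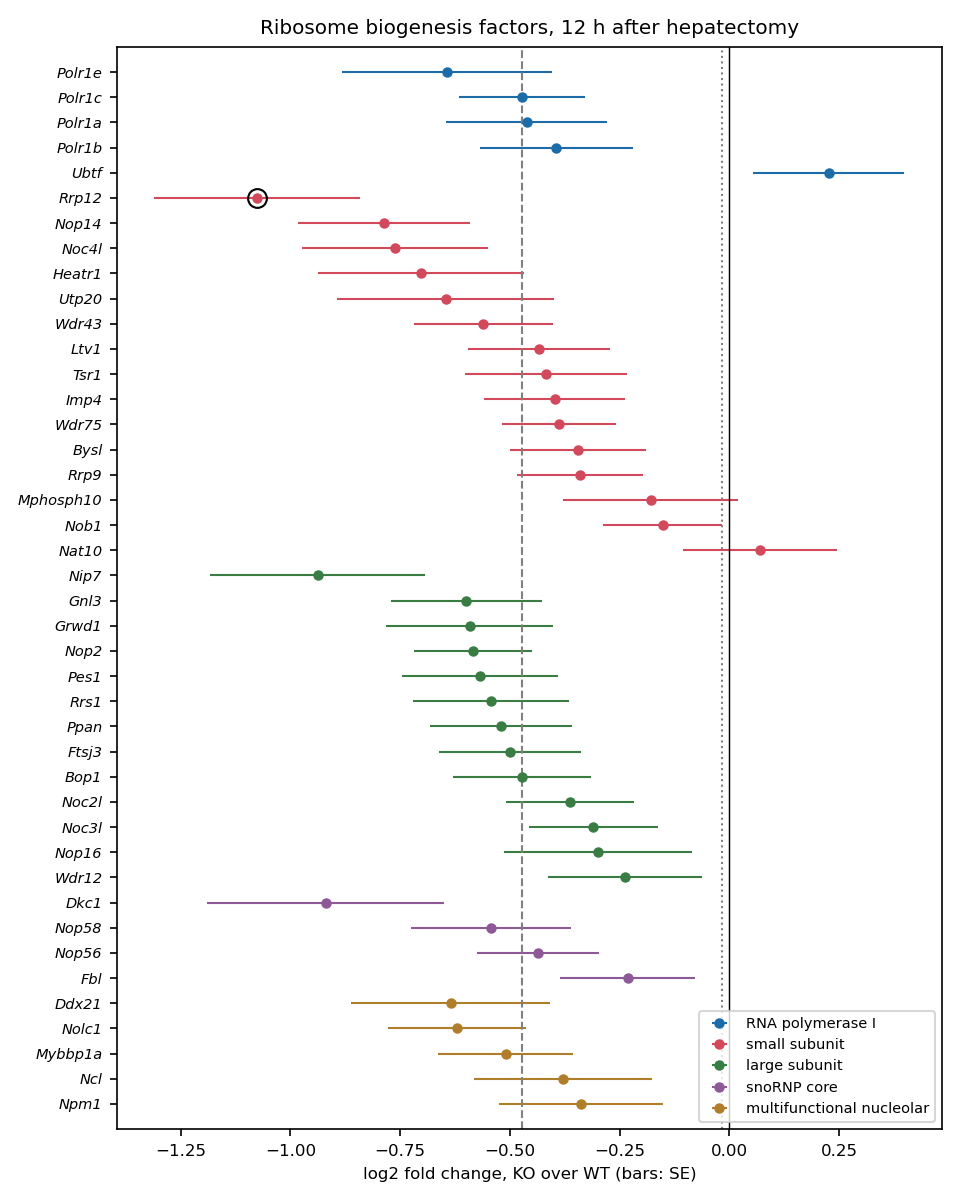
Log2 fold change of each ribosome biogenesis factor in KO over WT livers (points) with its standard error (bars), by class. The ring marks the called factor, Rrp12, the dashed line the median of the 42 factors (-0.47) and the dotted line the median of all tested genes (-0.02); only Ubtf and Nat10 lie to the right of 0.

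WT replicate 4 stood apart from the other WT livers. In a principal component analysis of all tested genes it lay at 40.1 on the first axis, beside KO livers at 42.2 to 46.8 and away from the other WT livers at -79.3 to -11.8. It was the lowest WT library in 28 of the 42 factors, where it was the lowest in 22.9% of all tested genes, and lay nearer the KO mean than the mean of the other WT livers in 38 of 42 (69.9% of tested genes). That liver was picked out from these same data, and leaving out a low WT liver widens the difference in factors where it lay low. Counts without WT replicate 4 therefore describe its weight and add no separate support. Without it the test called 25 of the 42 factors lower and 0 higher, where 10.9% of all tested genes were called lower and 10.5% higher. Before adjustment, 33 factors were lower and 0 higher at a p under 0.05 without that liver (18.4% of all tested genes lower and 17.7% higher). The median log2 fold change without it was -0.53, and all KO libraries lay below all remaining WT libraries in 25 factors (10.7% of tested genes). Leaving out any other single library left no factor called. Then 23 to 30 of the 42 factors were lower at an unadjusted p under 0.05, beside 10.8% to 14.3% of all tested genes. Total counts ran from 12675838 to 17098012 in KO and from 12307446 to 14340623 in WT, and mitochondrial transcripts took 16.5% to 30.5% of counts in KO and 14.5% to 28.9% in WT. A factor had between 83 and 6464 reads in a library.

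As a check of the labels, Ifrd1 itself was at 13.0, 22.6, 20.8 and 21.6 CPM in KO livers, against 40.2 CPM at the lowest, 54.9 at the median and 81.7 at the highest in WT livers. Every KO liver lay below every WT liver, WT replicate 4 included at 49.6 CPM (log2 fold change -1.59, SE 0.23, edgeR adjusted p = 0.0258). The call of Ifrd1 was lost without KO replicate 1, 2, 3 or 4 (edgeR adjusted p from 0.0985 to 0.132) and without WT replicate 1 or 5 (edgeR adjusted p = 0.0521 and 0.0648). The hepatocyte genes Alb, Apoa1, Ttr, Cps1, Hnf4a, Serpina1a, Cyp2e1 and Ass1 were all present, with a summed level of 50958 to 60874 CPM in KO and 38506 to 82613 CPM in WT. Their largest WT sum and smallest WT sum both lay outside the KO range, and WT replicate 4 held the smallest. Ass1 was lower (log2 fold change -0.96) and Apoa1 higher (0.53) at an unadjusted p under 0.05, and neither was called.

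Markers of other liver cells were also measured, and none of their genes was called in either direction. Of 6 Kupffer cell markers, Clec4f, Vsig4 and Marco were lower at an unadjusted p under 0.05, and the 6 summed to 28.9 to 60.0 CPM in KO and 34.3 to 197 CPM in WT. Of 6 monocyte and neutrophil markers, 4 could be tested and S100a8 and S100a9 were lower at that p, with sums of 15.8 to 19.7 CPM in KO and 14.98 to 159 CPM in WT. Of 6 lymphocyte markers, Igkc alone could be tested and was lower at that p, with sums of 2.18 to 4.01 CPM in KO and 1.47 to 200.4 CPM in WT. In all 3 lists the highest WT liver had far more of these transcripts than any KO liver. For lymphocytes this was Igkc, at 198.9 CPM in its highest WT liver and a WT mean of 35.1 CPM. Of the other lymphocyte markers, Cd3e, Cd79a and Ms4a1 had the higher mean in KO and Cd3g and Nkg7 in WT, all too low to be tested. Ccr2 of the monocyte list had a log2 fold change of 0.61, not past that p. Of 6 sinusoidal endothelial markers, Lyve1 was lower and Clec4g higher at that p, and the sums were 113 to 167 CPM in KO and 93.0 to 187 CPM in WT. Stellate cell markers (137 to 184 CPM in KO and 114 to 220 CPM in WT), cholangiocyte markers (42.2 to 65.3 CPM in KO and 32.0 to 283 CPM in WT) and erythroid markers (165 to 403 CPM in KO and 123 to 347 CPM in WT) had 0 genes past that p. Of 8 cell cycle genes, 6 could be tested and Cdk1 was lower at that p, with sums of 18.1 to 24.4 CPM in KO and 20.2 to 31.8 CPM in WT. No marker was at 0 in all libraries. The part of these cell types in the factors' differences was not tested, and in bulk tissue fewer cells of a type and less RNA per cell cannot be told apart.

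RNA polymerase I and its activator gave 4 lower genes and 1 that ran the other way. Of the 5 genes of this class, 4 were lower at an unadjusted p under 0.05 (14.4% of all tested genes). None was called, and the median log2 fold change was -0.46. Polr1c, a subunit shared with RNA polymerase III, was at 19.9, 16.8, 15.1 and 21.3 CPM in KO livers, against 21.8 CPM at the lowest, 25.1 at the median and 29.0 at the highest in WT livers. Each KO liver lay below each WT liver. The log2 fold change of Polr1c was -0.47 (SE 0.14, edgeR adjusted p = 0.0837, two-sided exact permutation p = 0.00476, the smallest that 4 against 6 libraries allow). Permutation p-values here and below are not adjusted for the number of genes tested.

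Polr1e, an accessory subunit of RNA polymerase I, was at 10.5, 7.63, 8.61 and 8.27 CPM in KO and at 7.83, 13.3 and 20.9 CPM (lowest, median and highest) in WT. Its groups overlapped only through WT replicate 4, which held the lowest WT value, and its log2 fold change was -0.64 (SE 0.24, edgeR adjusted p = 0.125). Polr1a, the largest catalytic subunit, was at 24.4, 26.2, 29.0 and 26.4 CPM in KO, against 28.1, 34.9 and 51.0 CPM in WT. WT replicates 1 and 4 lay at 28.1 and 28.6 CPM, below the highest KO liver (log2 fold change -0.46, SE 0.18, edgeR adjusted p = 0.142). Polr1b, the other large catalytic subunit, averaged 25.5 ± 2.91 CPM in KO and 33.5 ± 7.05 CPM in WT (SD, n = 4 and 6).

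Ubtf, the factor that binds ribosomal DNA and recruits the polymerase, was at 52.7, 58.2, 54.6 and 66.4 CPM in KO, against 33.3, 49.9 and 63.2 CPM in WT. All KO livers lay above the WT median. The groups overlapped through WT replicates 1 and 4, at 57.4 and 63.2 CPM, and WT replicate 4 was the highest WT liver. Ubtf had the highest log2 fold change of all 42 factors, at 0.23 (SE 0.17, edgeR adjusted p = 0.425).

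**Figure D2:**
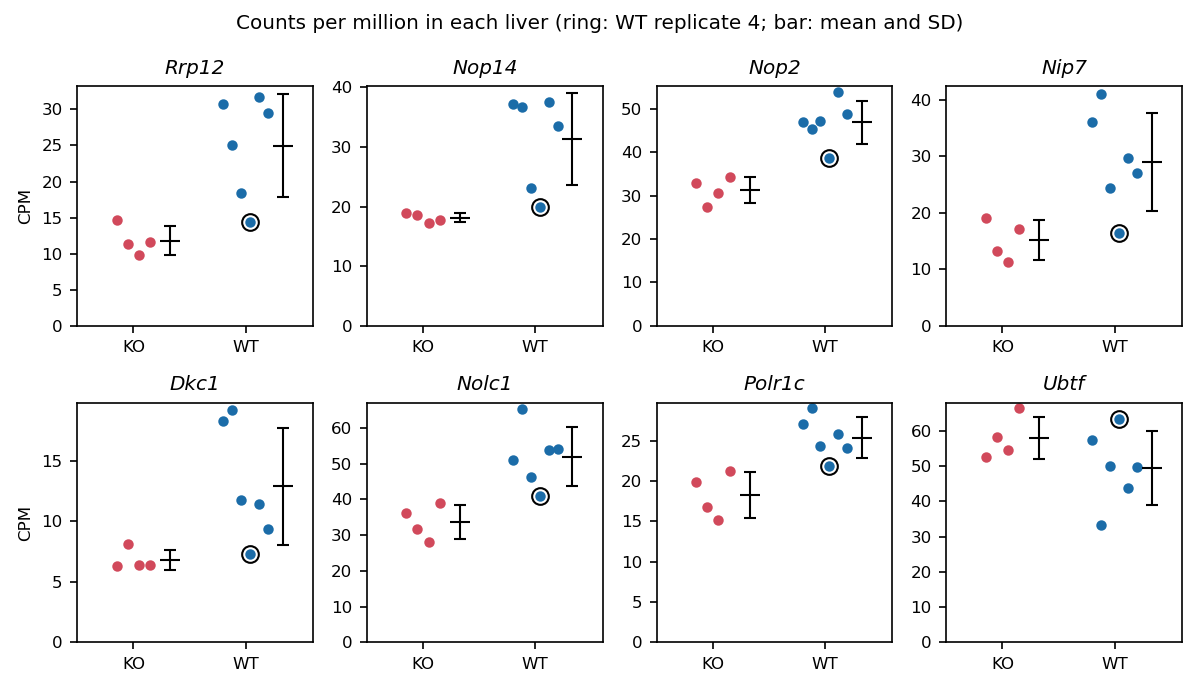
Normalised expression (CPM, linear axis from 0) of 8 factors in each of the 4 KO and 6 WT livers, with the mean and SD of each group beside the points and WT replicate 4 ringed. KO livers lie below all WT livers for Nop14, Nop2, Nolc1 and Polr1c, and overlap only the ringed WT liver for Rrp12, Nip7 and Dkc1. For Ubtf they lie above the WT median and overlap WT replicates 1 and 4.

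Small-subunit factors held both the called gene and the widest range of values. Of 15, 12 were lower at an unadjusted p under 0.05 (14.4% of all tested genes) and 1 was called. Log2 fold changes ran from -1.08 to 0.07 with a median of -0.42. Rrp12 (ENSMUSG00000035049.4, chromosome 19, 41862851 to 41896173, minus strand, GRCm38) encodes a HEAT-repeat protein that in yeast is needed for maturation and nuclear export of pre-ribosomes. It was at 14.6, 11.3, 9.76 and 11.6 CPM in KO livers, against 14.4 CPM at the lowest, 27.3 at the median and 31.7 at the highest in WT livers. Only WT replicate 4 lay within the KO range, and the next lowest WT liver was at 18.4 CPM. Rrp12 averaged 11.8 ± 2.03 CPM in KO and 25.0 ± 7.13 CPM in WT (SD, n = 4 and 6), a log2 fold change of -1.08 (SE 0.23, edgeR adjusted p = 0.0479, two-sided exact permutation p = 0.0143). The call was close to the threshold. It was lost without any 1 library other than WT replicate 4 (edgeR adjusted p from 0.0623 to 0.151), with limma-voom (adjusted p = 0.0503) and with upper-quartile scaling in edgeR (adjusted p = 0.0541), and without WT replicate 4 the edgeR adjusted p was 0.00179 and the log2 fold change -1.19.

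The early processome had 9 factors here (Rrp9, Imp4, Mphosph10, Nop14, Utp20, Wdr43, Wdr75, Heatr1 and Noc4l). Their median log2 fold change was -0.56, and 8 were lower at an unadjusted p under 0.05 (14.4% of all tested genes). Nop14, a core processome protein, was at 18.9, 18.6, 17.3 and 17.8 CPM in KO, against 19.9, 35.2 and 37.5 CPM in WT. The KO livers were nearly equal and all lay below the lowest WT liver, WT replicate 4 (log2 fold change -0.79, SE 0.20, edgeR adjusted p = 0.0586, exact permutation p = 0.00952). Noc4l, whose yeast counterpart binds Nop14, gave 13.1, 13.5, 13.2 and 14.1 CPM in KO and 14.8, 22.9 and 34.9 CPM in WT. Here too the groups did not overlap, with WT replicate 4 lowest in WT and WT replicate 2 highest (log2 fold change -0.76, SE 0.21, edgeR adjusted p = 0.0694).

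Among the WD-repeat and HEAT-repeat scaffold proteins of the processome, Wdr43 averaged 36.0 ± 3.72 CPM in KO and 53.2 ± 8.61 CPM in WT, and Wdr75 averaged 17.97 ± 1.14 CPM in KO and 23.5 ± 2.47 CPM in WT (SD, n = 4 and 6). Heatr1 was at 27.5 ± 3.30 CPM in KO and 44.8 ± 15.5 CPM in WT, and Utp20 at 14.6 ± 0.621 CPM in KO and 22.8 ± 8.41 CPM in WT. In both genes WT replicate 2 was the highest liver, at 68.6 CPM for Heatr1 and 36.0 CPM for Utp20. WT replicate 4 was the lowest WT liver in both. Mphosph10, which belongs to the same particle as Imp4, was the exception, with 13.7 ± 1.70 CPM in KO and 15.5 ± 3.89 CPM in WT (log2 fold change -0.18, edgeR adjusted p = 0.595).

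The late small-subunit factors and the modifying enzyme Nat10 followed. Apart from Rrp12, the late factors Bysl, Tsr1, Ltv1 and Nob1 had log2 fold changes of -0.34, -0.42, -0.43 and -0.15. Nob1, the endonuclease that makes the last cut of small-subunit rRNA, was at 20.9, 16.5, 18.7 and 18.03 CPM in KO and at 18.2, 20.1 and 23.9 CPM in WT, with overlapping groups. Nat10, which acetylates cytidines in small-subunit rRNA and in transfer RNA, was at 33.1, 28.4, 37.5 and 25.4 CPM in KO, against 21.9, 29.2 and 39.3 CPM in WT. No direction could be given for Nat10: its log2 fold change was 0.07 (SE 0.17, edgeR adjusted p = 0.833), and it was below 0 without KO replicate 3 or without WT replicate 1.

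All 13 large-subunit factors had log2 fold changes below 0, from -0.94 to -0.24 with a median of -0.52. None was called by edgeR on all libraries, and 10 were lower at an unadjusted p under 0.05 (14.4% of all tested genes). On the same libraries DESeq2 called 9 lower (7.59% of all tested genes) and limma-voom 1 (0.636%). Without WT replicate 4, edgeR called 9 lower (10.9% of all tested genes). Nop2, a methyltransferase of large-subunit rRNA, was at 32.8, 27.3, 30.6 and 34.1 CPM in KO livers, against 38.6, 47.0 and 53.9 CPM in WT livers. Its groups did not overlap, and even WT replicate 4, the lowest WT liver, stood above the KO range. The log2 fold change of Nop2 was -0.58 (SE 0.13, edgeR adjusted p = 0.0535, exact permutation p = 0.00476). DESeq2 and limma-voom called it lower (Benjamini-Hochberg adjusted p = 0.00120 and 0.0440), and its adjusted p ran from 0.00120 to 0.164 over all alternatives.

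Nip7, needed in yeast for large-subunit assembly, had the largest difference of the class. It was at 19.03, 13.2, 11.3 and 17.1 CPM in KO, against 16.4, 28.3 and 41.0 CPM in WT, with an overlap through WT replicate 4 alone (log2 fold change -0.94, SE 0.25, edgeR adjusted p = 0.0637). Gnl3, the nucleolar GTPase also called nucleostemin, was at 53.2, 53.5, 50.5 and 56.5 CPM in KO and at 54.4, 78.3 and 100.5 CPM in WT. The other WT livers than WT replicate 4 were at 75.6 CPM or more (log2 fold change -0.60, SE 0.17, edgeR adjusted p = 0.0743).

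The 3 proteins of the PeBoW complex, which acts in large-subunit rRNA processing, did not have equal values. Pes1 averaged 25.9 ± 1.70 CPM in KO and 38.4 ± 8.44 CPM in WT, and Bop1 17.2 ± 0.951 CPM in KO and 23.9 ± 4.21 CPM in WT (SD, n = 4 and 6). Wdr12 was at 22.3, 24.0, 19.7 and 22.0 CPM in KO, against 19.2, 26.2 and 32.2 CPM in WT, and its groups overlapped in several livers (log2 fold change -0.24, SE 0.17, edgeR adjusted p = 0.404). Whether Wdr12 differed from its partners in response was not tested. Of the remaining large-subunit factors, Grwd1, Rrs1, Ppan and Ftsj3 had log2 fold changes of -0.59, -0.54, -0.52 and -0.50, and Noc2l, Noc3l and Nop16 of -0.36, -0.31 and -0.30.

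**Figure D3:**
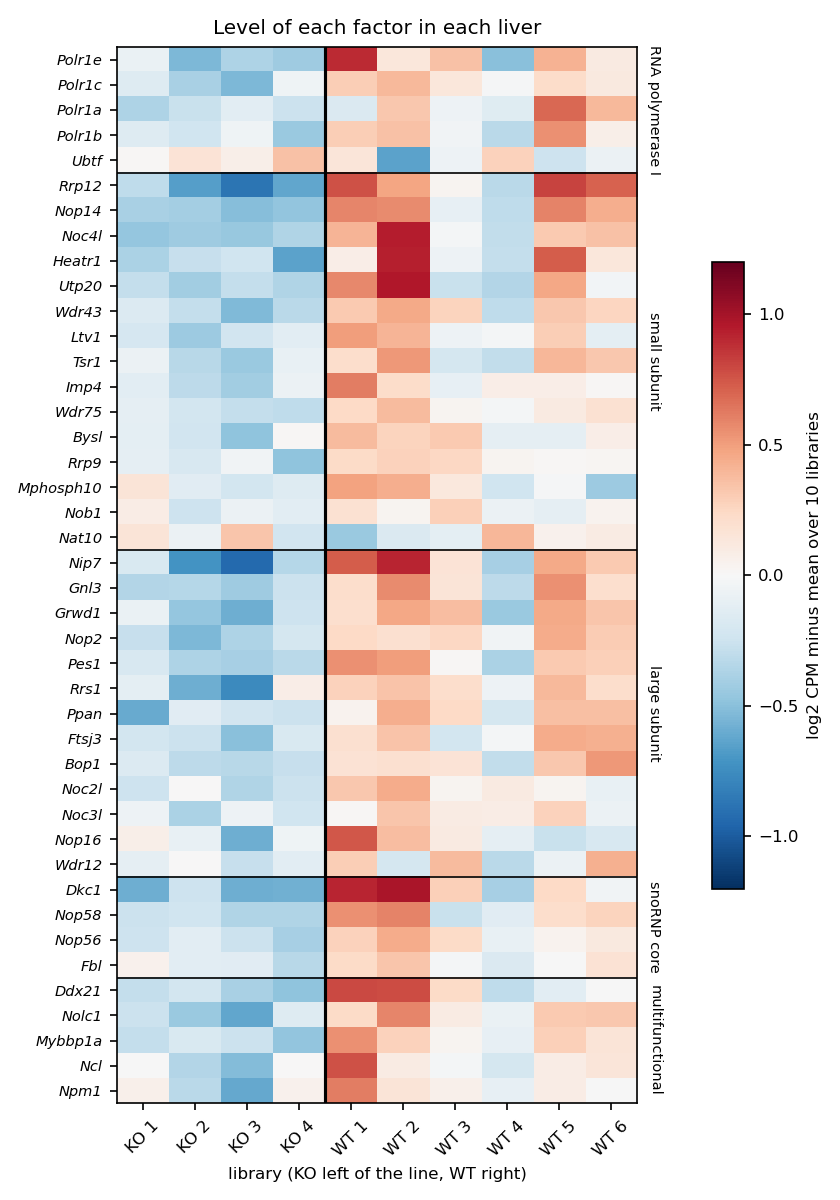
Log2 CPM of each ribosome biogenesis factor in each library, minus its mean over the 10 libraries (colour, red higher and blue lower), with KO libraries left and WT libraries right and the 5 classes stacked. KO columns and the column of WT replicate 4 are mostly blue, and WT replicates 1 and 2 are the reddest columns. The row of Nat10 shows no such split, and in the row of Ubtf all KO values lie above its mean.

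The 4 core proteins of snoRNA particles all had log2 fold changes below 0, with a median of -0.49. At an unadjusted p under 0.05, 3 were lower (14.4% of all tested genes). Dkc1, the pseudouridine synthase of box H/ACA particles, was at 6.34, 8.09, 6.38 and 6.41 CPM in KO livers, against 7.28, 11.6 and 19.1 CPM in WT livers. WT replicates 1 and 2 were highest and WT replicate 4 lay within the KO range (log2 fold change -0.92, SE 0.27, edgeR adjusted p = 0.0787). Nop56, a scaffold protein of box C/D particles, was at 48.2, 52.5, 47.7 and 43.3 CPM in KO and at 53.6, 64.6 and 78.0 CPM in WT, with no overlap (log2 fold change -0.44, SE 0.14, edgeR adjusted p = 0.0913). Its paralogue Nop58 was at 50.5, 51.2, 47.1 and 47.1 CPM in KO, against 50.1, 71.4 and 91.6 CPM in WT, where WT replicate 3 was the overlapping liver (log2 fold change -0.54, SE 0.18, edgeR adjusted p = 0.101). Fbl, the ribose methyltransferase of the same particles, was at 13.6, 12.1, 12.0 and 10.4 CPM in KO and at 11.7, 14.0 and 16.6 CPM in WT, a difference within the spread of the livers (log2 fold change -0.23, SE 0.15, edgeR adjusted p = 0.354).

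Among the 5 nucleolar proteins with several roles, 3 were lower at an unadjusted p under 0.05 (14.4% of all tested genes) and Ncl and Npm1 were not. Nolc1, a chaperone of snoRNA particles, was at 36.1, 31.8, 28.1 and 39.0 CPM in KO, against 41.0, 52.5 and 65.3 CPM in WT, without overlap (log2 fold change -0.62, SE 0.16, edgeR adjusted p = 0.0617, exact permutation p = 0.00476). Mybbp1a, a nucleolar MYB-binding protein that acts in rRNA synthesis and processing, was at 101, 108, 103 and 88.6 CPM in KO and at 115, 143 and 180 CPM in WT. No KO liver reached the lowest WT liver (log2 fold change -0.51, SE 0.15, edgeR adjusted p = 0.0825). Ddx21, an RNA helicase, was at 38.7, 40.5, 35.8 and 33.6 CPM in KO, against 38.04, 51.1 and 81.8 CPM in WT, where WT replicates 1 and 2 were the highest livers.

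Ncl (nucleolin) and Npm1 (nucleophosmin) had the highest CPM per kilobase of annotated exon. That length merges the exons of all annotated transcripts of a gene and can exceed the length of any of them. Nucleophosmin averaged 45.5 CPM per kilobase in KO and 57.6 in WT, and nucleolin 21.5 in KO and 27.9 in WT, while the remaining 40 factors lay between 1.43 and 17.3 CPM per kilobase in KO and between 2.17 and 24.6 in WT. Npm1 was at 143, 109.6, 89.9 and 142 CPM in KO, against 129, 145 and 211 CPM in WT. Ncl was at 250.3, 197, 176 and 252 CPM in KO, against 217, 268 and 427 CPM in WT. The groups overlapped in both genes, and WT replicate 1 stood well above the other WT livers in both (log2 fold changes -0.34 and -0.38, edgeR adjusted p = 0.270 and 0.259).

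The classes can be set side by side by library. The mean over class members of log2 CPM, taken relative to each gene's mean over the 10 libraries, gave a KO minus WT difference of -0.32 for RNA polymerase I, -0.45 for the small subunit, -0.49 for the large subunit, -0.50 for snoRNA particle cores and -0.48 for the multifunctional proteins. For RNA polymerase I the class mean was -0.15, -0.26, -0.20 and -0.17 in KO livers, with WT livers from -0.14 in WT replicate 4 to 0.32 in WT replicate 5. The small-subunit mean was -0.15, -0.31, -0.32 and -0.29 in KO, with WT from -0.14 in WT replicate 4 to 0.45 in WT replicate 2. The large-subunit mean was -0.19, -0.32, -0.45 and -0.21 in KO, with WT from -0.18 in WT replicate 4 to 0.38 in WT replicate 2. In each of these 3 classes all KO livers lay below all WT livers, but WT replicate 4 lay about 0.01 above the highest KO liver on the log2 scale. In the snoRNA particle and multifunctional classes WT replicate 4 lay within the KO range. The RNA polymerase I mean includes Ubtf, which ran the other way from the Polr1 genes. The median log2 fold change of that class was -0.46 with Ubtf and -0.47 without it. No test was made between classes.

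WT livers varied more than KO livers in these genes, as they did in most tested genes. The SD of log2 CPM was larger in WT in 37 of the 42 factors, with a median of 0.16 in KO and 0.30 in WT. Over all tested genes the medians were 0.24 in KO and 0.42 in WT, and the WT value was the larger in 11028 of 13688 genes. Within WT, replicate 2 was the highest liver in 19 factors and replicate 1 in 11, replicate 5 in 7, replicates 4 and 6 in 2 each and replicate 3 in 1. Averaged over all 42 factors, KO livers were at -0.37 to -0.18, WT replicates 2 and 1 at 0.39 and 0.37, WT replicates 5, 6 and 3 at 0.25, 0.16 and 0.08, and WT replicate 4 at -0.16.

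A list of 106 other ribosome biogenesis genes lay mostly on the same side of 0. It was chosen with earlier results of these data known, so it adds no independent support. Of these, 93 had a log2 fold change below 0, as did 51.6% of all tested genes. The median was -0.34, and the lowest values, of Naf1 and Gar1, were below that of Rrp12. In the test on all libraries 0 were called in either direction (0.767% of all tested genes lower and 0.563% higher). At an unadjusted p under 0.05, 46 were lower and 1 higher (14.4% and 11.6% of all tested genes). DESeq2 called 24 of them lower (7.59% of all tested genes) and limma-voom 1 (0.636%). Without WT replicate 4, edgeR called 36 lower and 1 higher (10.9% and 10.5% of all tested genes). The median was -0.26 for 11 other RNA polymerase I genes, -0.30 for 41 small-subunit genes, -0.40 for 43 large-subunit genes and -0.38 for 11 genes of snoRNA particles.

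Rrn3, the initiation factor that makes RNA polymerase I competent to start, averaged 13.6 ± 1.37 CPM in KO and 20.04 ± 2.31 CPM in WT without overlap (SD, n = 4 and 6, log2 fold change -0.56, edgeR adjusted p = 0.0617). Taf1d, a subunit of the promoter selectivity factor, was at 36.1 ± 4.78 CPM in KO and 63.6 ± 14.6 CPM in WT (edgeR adjusted p = 0.0546). Gar1, the partner of Dkc1 in box H/ACA particles, was at 11.3, 9.17, 9.53 and 9.27 CPM in KO, against 11.4, 21.4 and 31.3 CPM in WT. Its log2 fold change was -1.15 (SE 0.26, edgeR adjusted p = 0.0534), and Naf1, an assembly factor of the same particles, was at -1.16 (edgeR adjusted p = 0.0829). Ddx24, an RNA helicase, averaged 33.4 ± 2.64 CPM in KO and 53.9 ± 9.42 CPM in WT (edgeR adjusted p = 0.0535). Rrp7a of the processome averaged 19.9 ± 2.40 CPM in KO and 31.6 ± 6.69 CPM in WT (edgeR adjusted p = 0.0665).

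Bud23, which methylates small-subunit rRNA, was the 1 gene of this list higher at an unadjusted p under 0.05. It was at 37.0, 39.4, 34.0 and 36.8 CPM in KO, against 23.0, 26.4 and 36.3 CPM in WT, where WT replicate 4 was the highest liver (log2 fold change 0.43, SE 0.14, edgeR adjusted p = 0.0999). Cd3eap, an RNA polymerase I subunit gene, Nvl of the large-subunit list and Tgs1 of the snoRNA list had the highest log2 fold changes of their lists, at 0.18, 0.08 and 0.25, all within the spread of the livers.

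**Figure D4:**
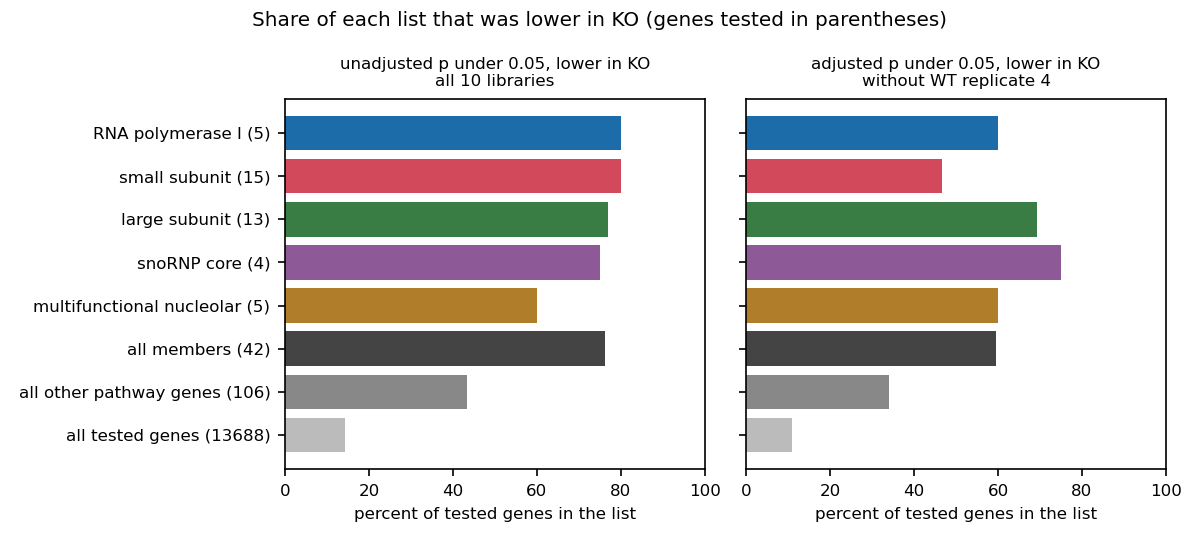
Percent of the tested genes of each list that were lower in KO, at an unadjusted p under 0.05 on all 10 libraries (left) and at an adjusted p under 0.05 without WT replicate 4 (right). On the left 32 of 42 factors and 46 of 106 other pathway genes passed, against 14.4% of all tested genes, and on the right 25 of 42 and 36 of 106, against 10.9%. WT replicate 4 was picked out from these same data.

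Myc, the transcription factor gene known to drive many of these factors, was at 11.2, 19.2, 17.5 and 11.8 CPM in KO, against 11.2, 32.4 and 45.4 CPM in WT. WT replicate 4 held the lowest WT value, and the other WT livers were at 26.1 CPM or more (log2 fold change -1.10, SE 0.34, edgeR adjusted p = 0.0855). On all libraries DESeq2 called Myc lower (adjusted p = 0.0205) and limma-voom did not (adjusted p = 0.108), and the exact permutation p was 0.0571. Without WT replicate 4 edgeR called Myc lower, at a log2 fold change of -1.28 (edgeR adjusted p = 0.00304).

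RefSeq start regions were matched for 37 of the 42 factors, in windows of 250 bases before to 50 bases after the start. CACGTG, which reads the same on both strands, was found in 9 of the 37 (24.3%), in 11.7% of the 10062 tested genes that have a window and in 8.09% of all 27025 genes with a RefSeq start region. In 7 of the 9 it lay after the start, from base 3 in Pes1 to base 46 in Mybbp1a, as in the lines printed for Pes1, Wdr43 and Tsr1, and in Nop2 it lay 60 bases before the start. Counting only the 250 bases before the start, 2 of 37 factors held it, beside 9.82% of tested genes, so the count rests on the bases just after the annotated start. The 9 were Imp4, Utp20, Wdr43, Tsr1, Ltv1, Pes1, Nop2, Grwd1 and Mybbp1a, with log2 fold changes from -0.65 to -0.40 and a median of -0.56, and the 28 without it had a median of -0.45. Factors with larger differences, such as Nip7, Nop14 and Dkc1, had no CACGTG in the window. Rrp12, Bop1, Rrs1, Fbl and Npm1 had no matched start region and were not searched.

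CCGGAA, the core bound by ETS factors, was found on either strand in 17 of 37 windows (45.9%) and in 31.2% of those of tested genes. TATAAA, on either strand, was found in 3 of 37, which were Pes1, Ppan and Dkc1 (8.11%), and in 9.41% of those of tested genes. By their letters a match to 1 of these 3 motifs cannot share a base with a match to another. A match shows letters in a window, not a bound site.

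The factors shared few features of position. They lay on 16 chromosomes, with 6 each on chromosomes 1 and 11 and Dkc1 on the X. In GENCODE M21, 8 of them hold snoRNA genes within their bounds on the same strand: Nop56 holds 5, Nop58 4, Gnl3, Ncl and Wdr43 3 each, Ppan and Tsr1 2 each and Dkc1 1. These 8 host genes had a median log2 fold change of -0.53, and 7 were lower at an unadjusted p under 0.05. The factors that hold none had a median of -0.47, and 25 of 34 were lower at that p. Of all tested genes 14.4% were lower at that p, and no test was made between hosts and the others. Mature snoRNAs lack poly(A) tails, and libraries made with oligo(dT) do not measure them. Exons of 17 factors, among them Nop14, Gnl3, Nop56, Dkc1 and Mybbp1a, overlap exons of another annotated gene. Since the strand setting of the counting is not given, reads of such partners cannot be told apart from those of the factor, and the levels of these 17 are uncertain to that extent.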

How the data were processed

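Raw read counts per gene symbol were used as the authors deposited them, 1 column per library, with 0 columns left out. STAR, HTSeq and DESeq2 and the build mm10 are named per the submitters' processing notes, and what each did, its version, the gene annotation and the strand mode was not given in the sources used here. Within a group, libraries differed by more than sampling noise (chi-square per degree of freedom from 20.8 to 169), so none was counted as a copy.

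Testing used the quasi-likelihood functions of edgeR 4.0.16 in R 4.3.3, with TMM size factors, the filterByExpr filter and a robust prior, over all 10 libraries and 13688 genes (99.8% of counts), adjusted by Benjamini-Hochberg over all of them. The SE is the log2 fold change over the square root of F. CPM uses TMM-adjusted library sizes, and log2 CPM a prior count of 2. Exact permutation tests are two-sided, over the 210 choices of 4 libraries, on log2(CPM + 0.5), and their p-values are unadjusted. Coordinates, exon lengths and snoRNAs are from GENCODE M21 (GRCm38). Alternatives were other scalings, filters and priors, DESeq2 1.42.0, limma-voom (limma 3.58.1), a replicate block and leaving out libraries.

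The same code was tested on simulated counts. The factors, classes and lists were chosen with earlier results of these data known. Values per liver are given for called factors and, in each class and list, for those with the smallest p and the highest fold change. Other factors and genes with values of their own were chosen after their values were seen.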

Additional observations from a re-analysis of the deposited data

Results flagged for a closer look

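In 5 of 88 groups of libraries (42 factors, Ifrd1 and Myc, in KO and in WT) a single library lay far from the rest by Dixon's test at the 95% level, which chance gives in about 1 of 20 groups. Dkc1 was at 8.09 CPM in KO replicate 2, and the other KO livers were at 6.34 to 6.41 CPM. Wdr43 was at 36.5 CPM in WT replicate 4, with the other WT livers at 54.0 to 61.7 CPM, and Grwd1 was at 14.8 CPM in the same liver, with the others at 23.1 to 27.8 CPM. Ncl was at 427 CPM in WT replicate 1, where the other WT livers were at 217 to 278 CPM, and Npm1 was at 211 CPM there, where the others were at 129 to 153 CPM.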

How the results depend on the processing

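Over 20 alternatives, 40 or 41 of the 42 factors had a log2 fold change below 0 and their median stayed between -0.53 and -0.43, while the median of all genes stayed between -0.02 and 0.03. The count of factors lower at an unadjusted p under 0.05 was 32 with all libraries and 23 to 33 over the alternatives, while the share of all tested genes lower at that p ran from 10.2% to 18.4%. The count of called factors, 1 with all libraries, depended on the tool and on single libraries. It was 21 with DESeq2 and 0 with upper-quartile scaling, and 1 with limma-voom, where Nop2 was called and Rrp12 was not. It was 1, Rrp12, with another size factor, either other filter and no robust prior. All tested genes gave 182 calls with the main settings, 1618 with DESeq2 and 318 with limma-voom. Among the 106 other pathway genes 0 were called with the main settings, 24 with DESeq2, 1 with limma-voom and 2 without the filter.

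Leaving out 1 library at a time gave 0 to 25 called factors, 0 to 2893 called genes and 0 to 37 called pathway genes, with the highest values without WT replicate 4. Called genes numbered 0 without KO replicate 1, 2 or 3, 2 without KO replicate 4 or WT replicate 1 or 5, 10 without WT replicate 3, 20 without WT replicate 6 and 55 without WT replicate 2. The log2 fold change of Nat10 was below 0 without KO replicate 3 (-0.029) and without WT replicate 1 (-0.0062), and ran from -0.029 to 0.17 over all single libraries left out. Why these counts move was not tested.

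The labels do not say whether the shared replicate numbers 1 to 4 pair the samples. Correlations between same-numbered livers, on deviations from group means, were 0.18, 0.07, -0.03 and -0.02. KO replicates 1 and 2 correlated best with WT replicates 1 and 2, and KO replicates 3 and 4 with WT replicates 4 and 6. Low correlations cannot exclude a pairing, and the main fit used none. A replicate block on the 8 libraries numbered 1 to 4 gave 0 called factors and 0 called genes. It gave 26 factors lower at an unadjusted p under 0.05 (10.2% of all tested genes). The same libraries with no replicate block, which is also the fit without WT replicates 5 and 6, were added after seeing the data. That fit gave 0 called factors, 4 called genes and 29 factors lower at that p (12.8% of all tested genes). Each factor had at least 83 reads in every library, and how much of the spread between livers is counting error was not tested.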
